A study of Rattus norvegicus with 6 samples.

Results

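The genes described here encode the enzymes that carry glucose to lactate, the carriers and regulators around them, and further genes that hypoxia-inducible factor (HIF) is known to switch on. They were found by symbol in the count tables of rat neural stem/progenitor cells (NSPCs), the multipotent cells of the developing brain. Of 35 listed genes, 34 were present, in 37 of the 17048 rows, and counts of Egln1 were not analysed here. They comprised 16 glycolytic enzymes, 4 glucose and lactate carriers, 3 regulators of glycolytic flux, 10 HIF targets outside glycolysis, and the HIF subunit Hif1a. Tpi1, Eno2 and Mif each had 2 rows.

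There were 6 RNA-seq libraries, 2 for each of 3 electrically conductive films, named “High”, “Medium” and “Low” for their conductivity. All cells were wild-type NSPCs from the embryonic telencephalon of Sprague-Dawley rats, expanded as neurospheres and collected after 24 h in medium that maintains stemness. The films were made of carbon nanotubes and graphene oxide nanofibers, and no library came from cells off a film. The comparison asked how transcript levels differed between the “High” film and the lower conductivities of “Low” and “Medium”. Nothing in the labels says that the 2 libraries of a film came from separate cultures or animals, so the p-values measure only the spread between these samples, which may be technical. No batch was given, so a film cannot be told apart from how its libraries were prepared.

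Glycolysis converts glucose to pyruvate in the cytosol, and lactate dehydrogenase then interconverts pyruvate and lactate. HIF is a dimer whose alpha subunit is marked for destruction by oxygen-dependent prolyl hydroxylases. When oxygen is scarce the dimer accumulates and binds a short core, ACGTG or GCGTG, near many glycolytic genes and near genes for angiogenesis, collagen maturation and mitochondrial turnover. Neural progenitors are known for a strong use of glycolysis.

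The 250 bases before the start of 4 genes are shown because these are the genes of the list with an unadjusted p under 0.05 in at least 1 comparison of films. They come from RefSeq on build GRCr8, 5′ to 3′ on the strand of the gene, and capitals mark ACGTG or GCGTG on either strand. They lie at chr1:106507842-106508091 on the plus strand for Ldha, chr20:27844796-27845045 on the plus strand for P4ha1, chr8:130400889-130401138 on the minus strand for Higd1a and chr1:174179950-174180199 on the plus strand for Adm.
Ldha: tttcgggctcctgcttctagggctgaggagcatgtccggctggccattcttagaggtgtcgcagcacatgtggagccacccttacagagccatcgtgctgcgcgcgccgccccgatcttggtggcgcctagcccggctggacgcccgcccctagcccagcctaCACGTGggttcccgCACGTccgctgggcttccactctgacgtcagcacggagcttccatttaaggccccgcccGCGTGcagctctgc
P4ha1: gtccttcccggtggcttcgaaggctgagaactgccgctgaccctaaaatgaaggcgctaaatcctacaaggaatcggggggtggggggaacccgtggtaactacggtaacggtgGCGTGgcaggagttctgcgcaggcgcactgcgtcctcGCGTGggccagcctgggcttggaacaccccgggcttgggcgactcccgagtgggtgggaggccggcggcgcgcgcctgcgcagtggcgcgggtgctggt
Higd1a: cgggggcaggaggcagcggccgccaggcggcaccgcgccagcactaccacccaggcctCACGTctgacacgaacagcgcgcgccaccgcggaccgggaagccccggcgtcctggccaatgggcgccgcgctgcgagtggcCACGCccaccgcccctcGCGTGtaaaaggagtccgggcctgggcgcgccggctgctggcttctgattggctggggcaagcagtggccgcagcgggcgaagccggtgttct
Adm: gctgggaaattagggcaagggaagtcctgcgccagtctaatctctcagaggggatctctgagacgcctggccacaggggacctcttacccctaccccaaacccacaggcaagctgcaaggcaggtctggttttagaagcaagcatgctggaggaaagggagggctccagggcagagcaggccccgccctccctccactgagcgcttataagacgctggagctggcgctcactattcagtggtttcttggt
Ldha and Higd1a had 3 marked sites each, P4ha1 had 2, and Adm had 0 in this window. In Ldha the upstream site is CACGTG, a palindrome that holds the core on both strands and was counted once. Over the wider window of 250 bases before to 50 after the start, 26 of 38 promoters of the listed genes (68.4%) held a core, beside 41.6% of all 33469 promoters in the table. The share was 13 of 19 for the enzymes and 7 of 12 for the HIF targets outside glycolysis, and 32 of the 35 genes had an entry. These matches describe letters in a window and not bound sites.

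The libraries held between 5124863 and 6213676 counts each. Rows of ribosomal RNA held 26.1% and 38.4% of counts on “High”, 7.27% and 13.0% on “Medium”, and 7.16% and 7.64% on “Low”. Medium replicate 1 had 1882 rows at 0 that had at least 50 counts in its partner, against 202 to 857 such rows in the other 5 libraries. Levels are given as CPM, counts set to a common library total after TMM scaling, which allows for differences in composition. Because QuantSeq reads only the 3′ end of a transcript, levels are compared between films and not between genes.

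Markers of the labelled cell type were present. Vim, Sox2 and Nes, genes of neural progenitors, were detected in every library, while Msi1 and Prom1 were at 0 in all. The 9 progenitor markers summed to 2875 and 2564 CPM on “High”, 4505 and 4101 on “Medium” and 3605 and 4700 on “Low”, with Vim the most abundant, so this sum was higher off the “High” film. The 6 oligodendrocyte lineage markers, led by Olig2 and Olig1, summed to 324 and 355 CPM on “High”, 508 and 545 on “Medium” and 745 and 616 on “Low”, with Sox10 at 0. Of the 7 microglial markers, 5 were at 0 throughout, and of the 8 meningeal and vascular markers 6 were, including Pecam1 and Cldn5, although Col1a1 reached 2005 counts in Medium replicate 2. The 6 neuronal markers summed to 12.3 and 12.6 CPM on “High”, 0.171 and 0.980 on “Medium” and 33.8 and 29.6 on “Low”. These sums came from 60, 53, 1, 6, 234 and 177 counts, of different genes. Tubb3 was counted on “Low” only, Stmn2 in High replicate 1 only and Snap25 in High replicate 2 only. The 4 astrocyte markers stayed at or under 72.5 summed CPM in every library. The part of these marker levels and of the ribosomal share in the results was not tested. In bulk RNA, fewer cells of a type and less RNA per cell cannot be told apart.

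After TMM scaling, the summed level of the glycolytic enzymes was nearly the same on the 3 films, whereas that of the HIF targets outside glycolysis was lower on “Low” and “Medium”, a gap between films that overlapped by library size alone. No gene of the list passed the threshold in the edgeR fit, while DESeq2 called P4ha1. The sum over the 16 enzymes was 3402 and 3154 CPM on “High”, 3287 and 3178 on “Medium” and 2977 and 3162 on “Low”, which gave 3278 ± 176, 3233 ± 76.8 and 3069 ± 131 CPM (SD, n = 2 for each). The films overlapped and the mean of “Low” and “Medium” was 3.87% below “High”. The 10 HIF targets outside glycolysis summed to 2738 and 2670 CPM on “High”, 1991 and 1678 on “Medium” and 2195 and 1691 on “Low”. These means were 2704 ± 48.3, 1835 ± 221 and 1943 ± 356 CPM (SD, n = 2 for each), 30.1% lower on average over “Low” and “Medium”. Both “High” libraries lay above the other 4.

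The number of enzyme counts per HIF target count needs no scaling between libraries. It was 1.24 and 1.18 on “High”, 1.65 and 1.89 on “Medium” and 1.36 and 1.87 on “Low”. Every “Low” and “Medium” library was above both “High” libraries. This order depended on P4ha1, since without it the ratio of Low replicate 1 lay between those of the “High” libraries. Which of the 2 sums moved depended on the scaling, since by library size alone the HIF targets summed to 2436 and 2076 CPM on “High” and overlapped the 1738 to 2449 CPM of the other libraries, while the enzymes summed to 3027 and 2453 CPM on “High” and to between 3290 and 3753 elsewhere. Single genes also carried much of the HIF sum. P4ha1 was 10.97% and 25.6% of it on “High” and 3.23% to 6.15% elsewhere, and without P4ha1 the sums were 2438 and 1987 CPM on “High” and 1611 to 2107 in the others, which overlapped. Without Mif, which took 17.3% to 40.5% of the sum, they were 1697 and 2208 CPM on “High” against 1239 to 1390 and did not overlap. That held after TMM scaling only, since by library size alone Low replicate 2 lay above High replicate 1. These sums were not tested, since the smallest two-sided p of an exact permutation of 4 libraries against 2 is 0.133.

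**Figure D1:**
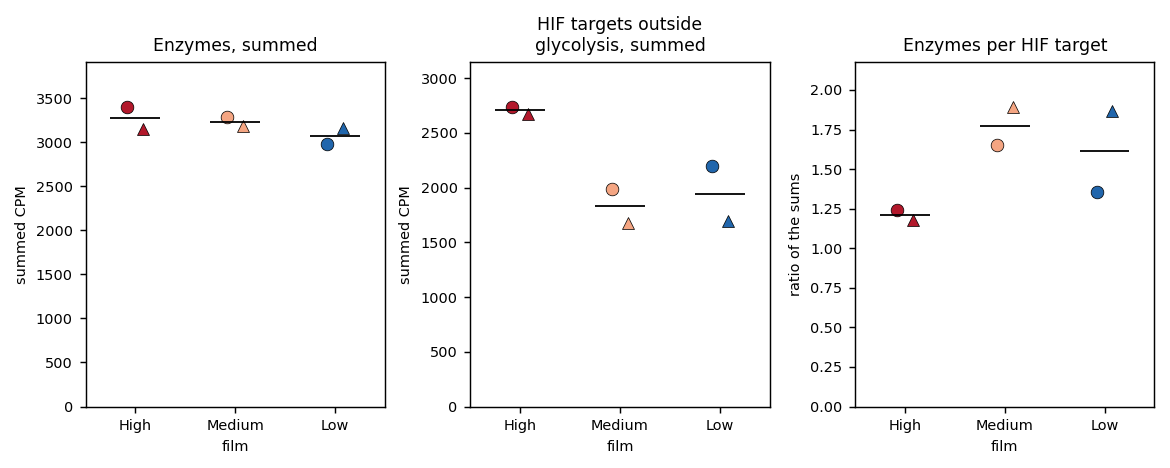
Summed CPM of the 16 enzymes (left) and of the 10 HIF targets outside glycolysis (middle), and the ratio of the sums (right), by film. Circles are replicate 1, triangles replicate 2 and lines the mean of 2 libraries. The enzymes overlap between films, the HIF targets are highest in both “High” libraries, and the ratio is lowest there.

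Of the 37 rows, 31 rows of 29 genes had enough counts to test. In the contrast of the mean of “Low” and “Medium” with “High”, the quasi-likelihood test of edgeR (Benjamini-Hochberg adjusted) called 0 of the 31 at an adjusted p under 0.05, and 10 of all 7729 rows (0.129%). DESeq2 called 1 of the 31, P4ha1, and 4.85% of all rows. At an unadjusted p under 0.05 there were 2 of 31 (6.45%), near the 5.50% of all rows, with Ldha higher and P4ha1 lower against 2.69% and 2.81% of all rows. Groups that did not overlap were found for 6 of 31 (19.4%), near the 18.2% of all rows, with 1 higher and 5 lower against 8.06% and 10.1% of all rows. By library size alone 6 of 31 did not overlap (19.4%, beside 20.1% of all rows), with 4 higher (Ldha, Higd1a, Pfkp and Eno1) and 2 lower (P4ha1 and Kdm3a) against 14.0% and 6.15% of all rows, while Aldoa, Ldhb and Vegfa overlapped. The median log2 fold change of the 31 rows was −0.25, beside −0.12 over all rows.

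Each film was also compared alone with “High”, whose libraries the comparisons share. For “Low” against “High” 0 of the 31 rows were called, beside 0.0518% of all rows, and 3 had an unadjusted p under 0.05 (Higd1a, P4ha1 and Adm), beside 4.27% of all rows. For “Medium” against “High” 0 were called, beside 0.0129%, and 2 had an unadjusted p under 0.05 (Ldha and P4ha1), beside 4.04%. Between “Low” and “Medium” 0 were called and 0 had an unadjusted p under 0.05, where 0 and 1.51% of all rows did. Libraries of the 2 films did not overlap for 13, 11 and 7 of the 31 rows in these comparisons (41.9%, 35.5% and 22.6%), beside 37.4%, 34.8% and 29.0% of all rows.

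Over the 17 tested enzyme rows the median log2 fold change was −0.16, with 6 positive and 11 negative. Of the 10 HIF targets outside glycolysis, 1 was positive and 9 were negative, and their median was −1.07, or −0.93 with every library raised to at least 3 counts. Ankrd37 was among the negative through its 0 counts on “Medium”, and its estimate for “Low” against “High” was 1.40 (SE 4.29). By library size alone, a scaling that raised the median of all rows by 0.38, the enzymes were 12 positive and 5 negative and the HIF targets 4 positive and 6 negative. Against “High”, the HIF targets had a median of −0.48 on “Low”, with 3 positive and 7 negative. On “Medium” it was −1.06, with 2 positive and 8 negative. The enzyme medians were −0.10 on “Low” and −0.34 on “Medium”. These comparisons share the “High” libraries. Directly between “Low” and “Medium” the medians were 0.37 for the HIF targets and 0.12 for the enzymes, beside 0.07 for all rows.

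**Figure D2:**
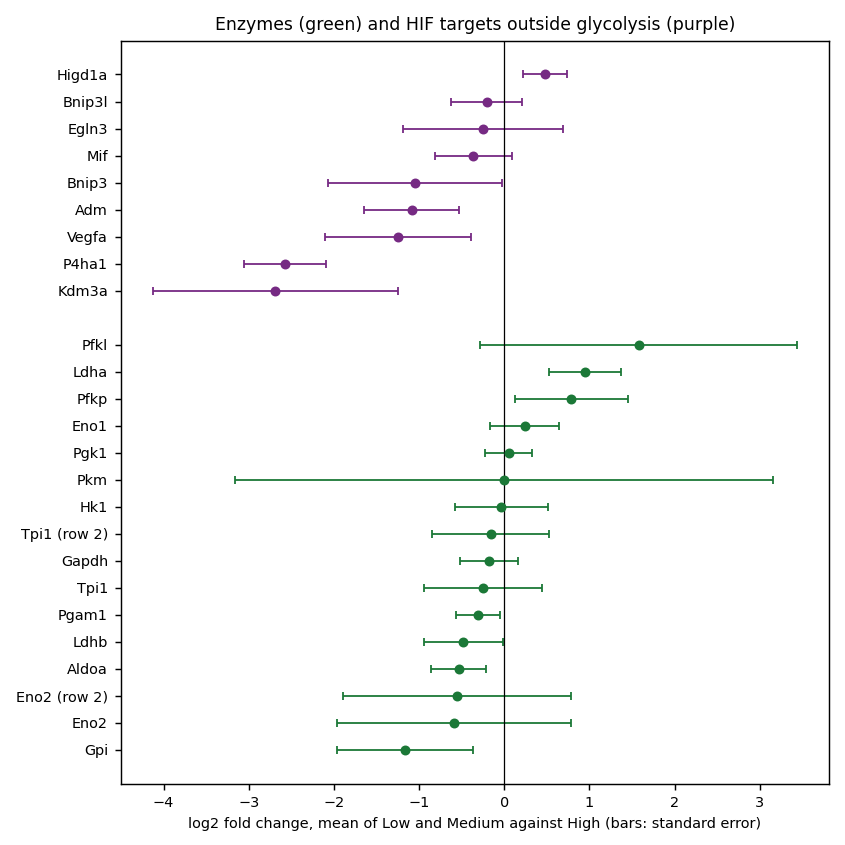
Log2 fold change of “Low” and “Medium” averaged against “High” for each tested row, with its standard error as a bar. HIF targets outside glycolysis are purple and enzymes green, and Ankrd37 and Pfkm, with a film at 3 counts or fewer, are left out. After TMM scaling the purple points lie below 0 apart from Higd1a, while the green points spread on both sides.

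Among the HIF targets, P4ha1 differed most clearly. It encodes the catalytic subunit of a collagen prolyl hydroxylase. Its level was 300.3 and 683 CPM on “High”, 123 and 67.6 on “Medium” and 88.3 and 54.7 on “Low”, from 1464, 2874, 717, 414, 612 and 327 counts in that order of libraries. All 4 lower-conductivity libraries lay below both “High” libraries, and High replicate 2 had more than any other. The log2 fold change was −2.58 (SE 0.48) for the mean of both films, −2.78 (SE 0.61) for “Low” and −2.37 (SE 0.60) for “Medium”. Adjusted p-values by the quasi-likelihood test of edgeR (Benjamini-Hochberg adjusted) were 0.107, 0.355 and 0.494. DESeq2 gave 8.06e-06 for the mean of both films, and without High replicate 2 the edgeR value was 0.939 at a log2 fold change of −1.87.

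Kdm3a and Vegfa lay on the same side. Kdm3a, a histone H3 lysine 9 demethylase, had 134 and 236 CPM on “High”, 0 and 39.0 on “Medium” and 53.7 and 30.8 on “Low”. Its groups did not overlap, and the log2 fold change was −2.69 (SE 1.44, unadjusted p 0.092), where the 0 came from Medium replicate 1. Its adjusted p by edgeR was 0.801, and 0.438 to 0.9999 when any library but Medium replicate 2 was left out. Without Medium replicate 2, which leaves “Medium” only the library at 0 and calls 2.79% of all rows, it was 0.00084. Vegfa, the main angiogenic growth factor, had 93.3 and 176 CPM on “High”, 70.6 and 18.5 on “Medium” and 84.0 and 61.2 on “Low”. Its groups were apart by a small margin, at a log2 fold change of −1.24 (SE 0.86, unadjusted p 0.18).

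Adm, which encodes the vasodilator peptide adrenomedullin, was lowest on the “Low” film. It had 203 and 331 CPM on “High”, 161 and 208 on “Medium” and 36.1 and 135 on “Low”. “High” and “Medium” overlapped and both “Low” libraries lay below both. The log2 fold change of “Low” against “High” was −1.65 (SE 0.69), with an unadjusted p of 0.038 and an adjusted p of 0.899. For the mean of both films it was −1.09 (SE 0.56).

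For the mean of both films, Higd1a was the 1 tested HIF target outside glycolysis with a positive estimate after TMM scaling. By library size alone it was 1 of 4. It encodes a small protein of the inner mitochondrial membrane that acts on respiratory complexes. Its level was 486 and 433 CPM on “High”, 471 and 639 on “Medium” and 714 and 759 on “Low”. Both “Low” libraries were above all others, while “Medium” overlapped “High”. For “Low” against “High” the log2 fold change was 0.68 (SE 0.29), with an unadjusted p of 0.044 and an adjusted p of 0.899, and for the mean of both films it was 0.48 (SE 0.26).

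The mitophagy receptors Bnip3 and Bnip3l differed in pattern. Bnip3 had 95.8 and 67.5 CPM on “High”, 9.91 and 25.5 on “Medium” and 79.1 and 97.3 on “Low”, so it was low on “Medium” alone. Its log2 fold change was −2.20 (SE 1.27) for “Medium” against “High” and 2.32 (SE 1.28) for “Low” against “Medium”, with unadjusted p-values of 0.11 and 0.10. Bnip3l ran from 149 to 318 CPM, with both “Low” libraries below the other 4 after TMM scaling but not by library size alone, and its log2 fold change for the mean of both films was −0.20 (SE 0.41).

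Egln3, an oxygen-sensing prolyl hydroxylase that marks HIF alpha subunits, lay between 82.7 and 128 CPM in 5 libraries and at 15.4 in Medium replicate 2. Mif, a cytokine, ran from 301 to 1041 CPM, with replicate 1 above replicate 2 on each film. Their log2 fold changes were −0.25 (SE 0.94) and −0.36 (SE 0.45). Both signs turned positive by library size alone, as did that of Bnip3l. Ankrd37 had 34 counts in High replicate 1, 128 in Low replicate 1 and 0 in the other 4 libraries. Hif1a itself had 37.7 and 29.5 CPM on “High”, 10.9 and 57.2 on “Medium” and 23.1 and 1.34 on “Low”, with a log2 fold change of −0.72 (SE 2.13). Both “Low” libraries lay below both “High” libraries after TMM scaling but not by library size alone, and “Medium” overlapped both.

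**Figure D3:**
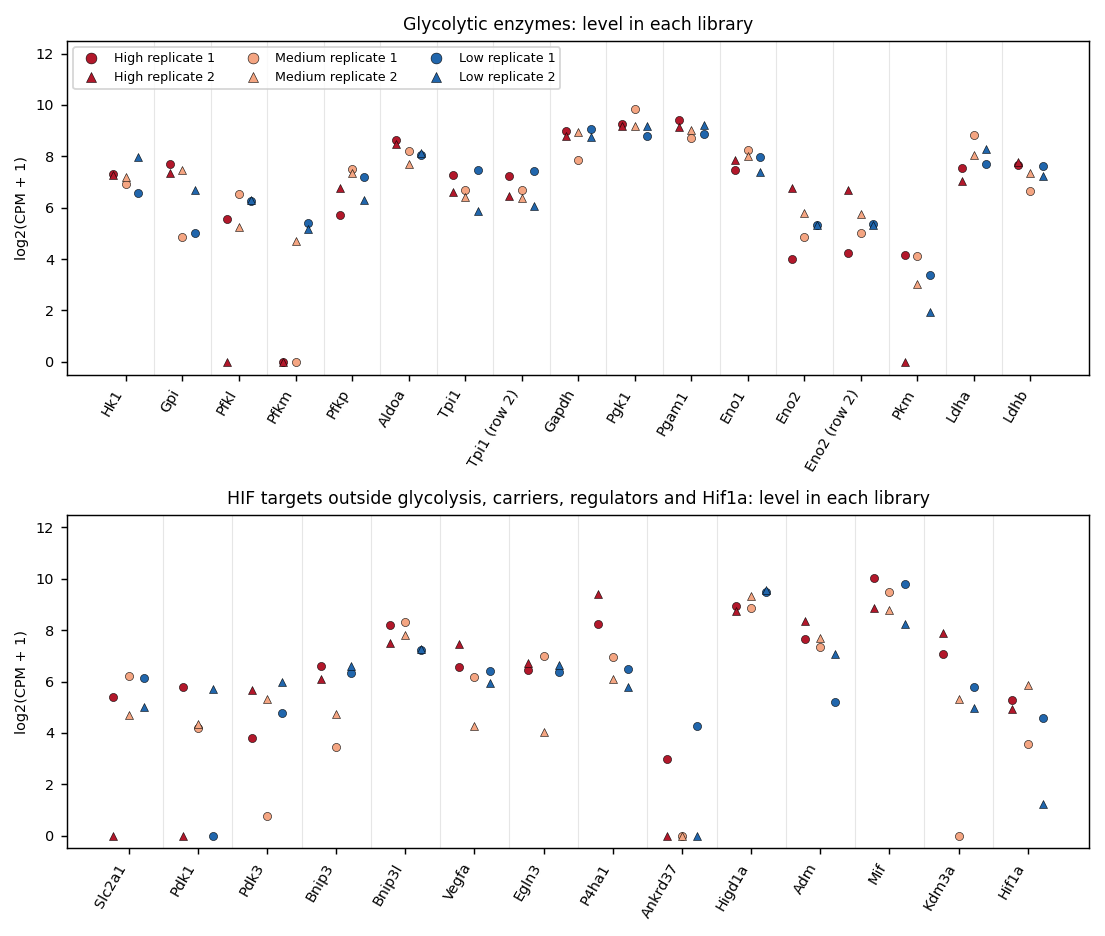
Level of each tested row in each library, as log2(CPM + 1), for the enzymes (top) and for the other genes (bottom). Colour marks the film, circles are replicate 1 and triangles replicate 2. P4ha1 has both red points above the rest, Higd1a has both blue points on top, and Ldha has both red points at the bottom.

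Taken as steps with isoenzymes summed, 8 of the 11 steps from hexokinase to lactate dehydrogenase overlapped between “High” and the other films, and 3 did not, where 18.2% of all single rows did not. Phosphofructokinase and lactate dehydrogenase had higher levels off “High”, and aldolase had lower levels, which overlapped by library size alone. Phosphofructokinase, the committing step of glycolysis, summed to 98.3 and 109 CPM on “High”, 273 and 222 on “Medium” and 261 and 191 on “Low”. All 4 were above both “High” libraries, with a mean 2.29 times that of “High”. Without Pfkm, which had 0 counts on “High”, the mean was 2.05 times that of “High”, with 156 to 273 CPM on the other films.

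The step is made up of 3 genes. Pfkp, the platelet isoform, ran from 51.5 and 109 CPM on “High” to 182 and 160 on “Medium” and 145 and 78.2 on “Low”, with a log2 fold change of 0.79 (SE 0.66). Pfkl, the liver isoform, had 228 counts in High replicate 1, 0 in High replicate 2 and 226 to 536 elsewhere, with a log2 fold change of 1.58 (SE 1.86). Pfkm, the muscle isoform, had 0 counts in both “High” libraries and in Medium replicate 1, and 152, 285 and 212 counts in Medium replicate 2 and the “Low” libraries. It passed the filter only through the films where it was counted, so its sign was fixed by the filter. Against a floor of 3 counts per library, its mean on “Low” was at least 57.6-fold higher than on “High”. None of the 3 had an unadjusted p under 0.05 in any comparison.

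Ldha, the lactate dehydrogenase subunit that predominates in strongly glycolytic tissue, was the enzyme with the smallest p. It had 186 and 129 CPM on “High”, 450.5 and 267 on “Medium” and 209 and 309 on “Low”, from 909, 545, 2636, 1634, 1447 and 1850 counts. All 4 libraries of the other films lay above both “High” libraries. The log2 fold change was 0.95 (SE 0.42) for the mean of both films, with an unadjusted p of 0.049 and an adjusted p of 0.801. The unadjusted p lay close to 0.05 and was 0.099 by limma-voom, 0.060 with RLE scaling, and 0.019 to 0.234 with a library left out, the highest without High replicate 2. It was also above 0.05 without Medium replicate 1 (0.130) and without Low replicate 2 (0.116). The log2 fold change was 1.18 (SE 0.47) for “Medium” against “High”, with an unadjusted p of 0.032. Ldhb, the subunit that predominates in oxidative tissue, had 200.4 and 221 CPM on “High”, 100.5 and 164 on “Medium” and 196 and 150.3 on “Low”. It lay lower by a small margin, at a log2 fold change of −0.48 (SE 0.46). The ratio of Ldha to Ldhb counts, which no scaling changes, was 0.930 and 0.585 on “High”, 4.48 and 1.63 on “Medium” and 1.07 and 2.06 on “Low”. Both “High” libraries had the lowest ratios, and Low replicate 1 was closest to them. This order follows from Ldha lying higher and Ldhb lower without overlap after TMM scaling, so it is not a separate result.

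Aldolase was represented by Aldoa, which splits fructose 1,6-bisphosphate. It had 394 and 360 CPM on “High”, 292 and 207 on “Medium” and 267 and 275 on “Low”. Its groups did not overlap, and the log2 fold change was −0.53 (SE 0.32, unadjusted p 0.13). Gpi, the isomerase of glucose 6-phosphate, ran from 28.4 to 205 CPM with a log2 fold change of −1.16 (SE 0.80), and Medium replicate 2 lay between the “High” libraries.

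The other enzymes had estimates under or near their standard errors. Log2 fold changes were −0.03 for Hk1, which traps glucose in the cell, −0.25 and −0.16 for the rows of Tpi1, −0.18 for Gapdh, 0.05 for Pgk1, −0.31 for Pgam1 and 0.24 for Eno1. Pgk1 and Pgam1, in the pay-off phase of the pathway, had the smallest standard errors of these at 0.28 and 0.26. Eno2, the neuronal enolase, was at 15.0 and 106 CPM on “High”, 27.9 and 53.7 on “Medium” and 39.5 and 39.6 on “Low”, with a log2 fold change of −0.59 (SE 1.37). Pkm, the pyruvate kinase of most tissues, had only 0 to 96 counts in any library. The counts include reads that align to several places, so genes with processed pseudogenes, among them Gapdh, Pgk1, Ldha, Eno1, Aldoa, Tpi1, Pgam1, Pkm and Mif, are uncertain.

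**Figure D4:**
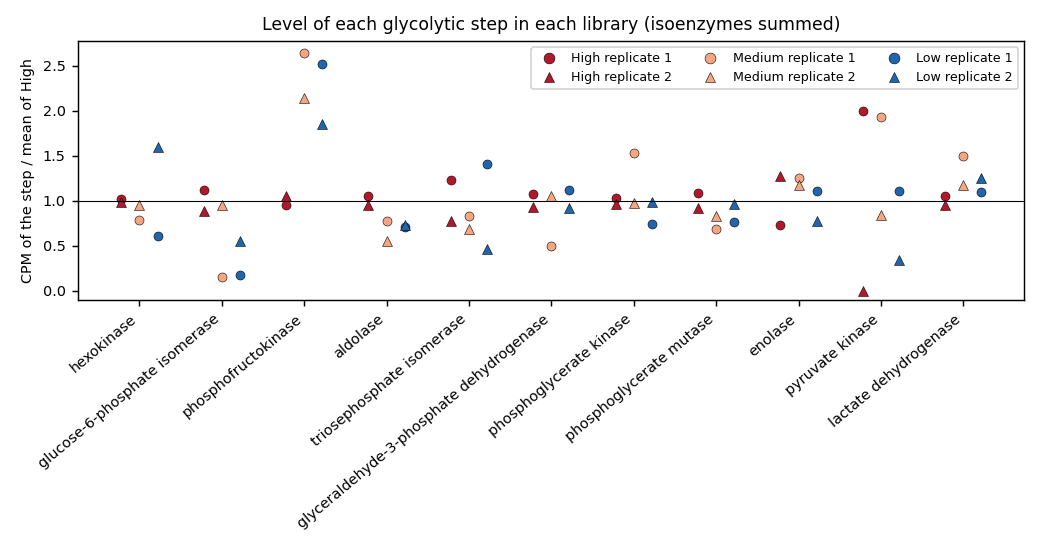
CPM of each of the 11 glycolytic steps in each library, with isoenzymes summed, divided by the mean of the 2 “High” libraries. Colour marks the film, circles are replicate 1 and triangles replicate 2. Phosphofructokinase and lactate dehydrogenase lie above the “High” points in all 4 other libraries, aldolase lies below after TMM scaling but not by library size alone, and the remaining 8 steps overlap.

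The carriers and regulators were thinly counted. Slc2a1, a widely expressed glucose carrier, had 202 and 0 counts on “High”, 429 and 154 on “Medium” and 486 and 187 on “Low”. The films overlapped, at a log2 fold change of 1.27 (SE 2.12). Slc16a1 and Slc16a3, lactate carriers, had counts in a single library each, 118 in Medium replicate 2 and 117 in Medium replicate 1. Slc2a3, a neuronal glucose carrier, the hexokinase Hk2 and the regulator Pfkfb3 had 0 counts in all 6 libraries, where 3 counts correspond to between 0.433 and 0.713 CPM.

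Pdk1 and Pdk3 inhibit pyruvate dehydrogenase and so hold pyruvate back from the mitochondria. Pdk1 had 266 and 0 counts on “High”, 102 and 118 on “Medium” and 0 and 308 on “Low”. Pdk3 had 64 and 212, 4 and 241, and 182 and 377. For both genes the libraries of a film lay far apart and the films overlapped, and the log2 fold changes were −0.33 (SE 2.91) and −0.09 (SE 2.02).

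**Figure D5:**
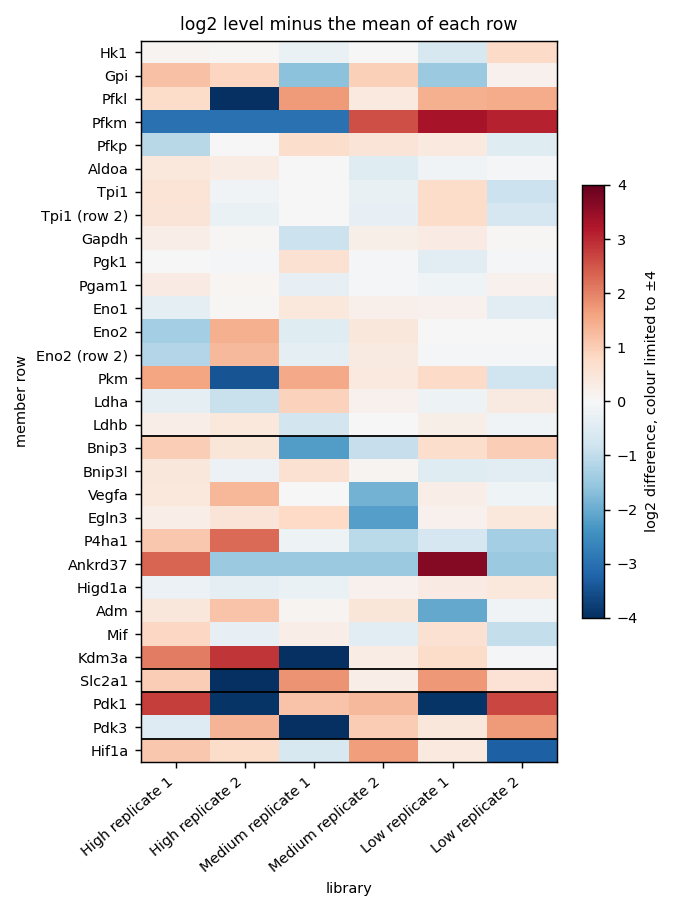
Log2 level of each tested row in each library minus the mean of that row, with the colour limited to 4 either way. Lines part enzymes, HIF targets outside glycolysis, the carrier, the regulators and Hif1a. P4ha1 and Kdm3a are red in both “High” libraries, and Pfkl, Pfkm, Pdk1 and Slc2a1 change colour within a film.

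Of 65 further genes around these pathways, 60 were present and 36 had enough counts to test. In the contrast of the mean of both films with “High”, the quasi-likelihood test of edgeR (Benjamini-Hochberg adjusted) called 0 of the 36, beside 0.129% of all rows. An unadjusted p under 0.05 was found for 4 (11.1%, beside 5.50% of all rows), 1 higher and 3 lower, beside 2.69% and 2.81%. Their median log2 fold change was −0.25. The one that was higher, Tfrc, encodes the transferrin receptor and is a HIF target. It had 192 and 331 CPM on “High”, 399 and 492 on “Medium” and 390 and 569 on “Low”, with a log2 fold change of 0.82 (SE 0.35, unadjusted p 0.041). Of those that were lower, Pdp2, a phosphatase that activates pyruvate dehydrogenase, and Pdhx, a component of that complex, had 15 and 304 and 72 and 82 counts on “High” and at most 1 elsewhere.

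The 18 further HIF targets summed to 873 and 949 CPM on “High”, 678 and 1001 on “Medium” and 793 and 976 on “Low”, so the films overlapped. Tfrc was 21.9% and 34.9% of this sum on “High” and 49.1% to 58.8% elsewhere. Tfrc was singled out after its values were seen to run against the list, so what follows is shaped by that choice. Without it the sums were 682 and 617 CPM on “High” and 279 to 509.6 elsewhere, and both “High” libraries lay above the other 4. By library size alone they overlapped, at 607 and 479.97 CPM on “High” and 319 to 528 elsewhere. Of the 11 tested, 4 were positive and 7 negative, with a median of −0.20. The genes that build or control HIF, led by Rbx1 of the ubiquitin ligase that degrades the alpha subunit, had a median of 0.03 over 7 tested. Genes that pass pyruvate into mitochondria had a median of −0.35 over 10, and the remaining glycolytic enzymes 0.05 over 6.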

How the data were processed

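RNA was measured in 6 libraries, grouped by film from the sample labels. The authors made QuantSeq 3′ libraries, aligned the reads with Bowtie2 to rn6 and used bedtools to count alignments on each gene, including reads with several alignments, per the submitters' processing notes and methods, with versions not given in the sources used here. They deposited whole-number counts, 1 table per library. RNA isolation is given as Trizol in the labels and as a Ribospin kit in the methods. Promoters were read from RefSeq on GRCr8 and matched by symbol, and no coordinate was carried between builds.

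Counts were analysed in edgeR 4.0.16, DESeq2 1.42.0 and limma 3.58.1, run in R 4.3.3. Of 17048 rows (16881 symbols), filterByExpr kept 7729. All 6 libraries entered 1 quasi-likelihood fit of the 3 film means after TMM scaling, with Benjamini-Hochberg adjustment over all rows tested and a threshold of 0.05. The common dispersion was 2.04. Levels are CPM, as mean ± SD of 2 libraries. A floor of 3 counts was used for bounds, which cover counting error only. Alternatives were other tests, scalings, filters, a replicate block and each library left out.

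The genes and lists were chosen with earlier results of these data known. Every listed gene is named, with values in each library where its p was under 0.05 unadjusted in any comparison, its “Low” and “Medium” libraries all lay on one side of both “High” libraries after TMM scaling, or a film was at the floor, and other values were given after they were seen. Of the further genes, those with an unadjusted p under 0.05 and a mean log CPM of at least 3 were to be named, and Pdhx and Rbx1 were named after their values were seen. A further gene is not reported here. Sums, steps and ratios are descriptions without a test, and sums use 1 row per gene. Overlap by library size and the sums without Tfrc or Pfkm were chosen after seeing the data.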

Additional observations from a re-analysis of the deposited data

How the results depend on the processing

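Calls depended strongly on the test and filter. With “Low” and “Medium” averaged against “High”, edgeR called 10 genes, DESeq2 375, limma-voom 23, no filter on low counts 68, a mean count of at least 10 gave 56 and the replicate block 57, with 34 to 242 when each library was left out, the 242 without Medium replicate 2. For “Low” against “High” the 4 calls became 300 (DESeq2), 16 (limma-voom), 0 (library sizes alone), 2 (ribosomal RNA rows left out), 34 (no filter), 30 (mean count of at least 10), 0 (these 2 films only) and 30 (replicate block), and 19 to 65 with a library left out. For “Medium” against “High” the 1 call became 307, 14, 0, 48 (no filter), 40 (mean count), 0 (these 2 films only) and 39 (replicate block), in the same order of settings, and 11 to 275 with a library left out, again the most without Medium replicate 2. Between “Low” and “Medium” 0 became 116 by DESeq2, 5 without a filter and 0 to 194 with a library left out, the 194 without Medium replicate 2. Of the 31 listed rows, 1 was called by DESeq2, without a filter, with a mean count of at least 10 and with the replicate block, and 0 to 2 with a library left out. P4ha1 was that gene, and Kdm3a the second without Medium replicate 2. P4ha1 was not called without High replicate 2. Differences between the replicates of a film were hardly correlated between films, at 0.00656, 0.00344 and 0.00731. With counts that vary this much between libraries, such values cannot exclude that libraries of the same replicate number shared a culture or preparation.

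The enzyme median of −0.16 was 0.011 by limma-voom, 0.22 by library sizes alone and −0.25 to 0.065 with a library left out. The HIF target median of −1.07 was −0.68 by library sizes alone and −1.18 to −0.57 with a library left out. It was nearest 0 without High replicate 1, where the median of all rows was 0.32. Over the single genes, 384 of 434 alternative values kept sign and side of the threshold and 40 turned sign. By library sizes alone, log2 fold changes became 0.35 (Hk1), 0.13 and 0.22 (Tpi1), 0.20 (Gapdh), 0.076 (Pgam1), 0.31 (Pkm), 0.33 (Pdk3), 0.17 (Bnip3l), 0.18 (Egln3) and 0.0092 (Mif). Pgk1 became −0.0019 by DESeq2 and −0.0018 by RLE. By limma-voom, Eno2 became 0.13 and 0.052, Pkm 2.41 and Pdk1 1.20, and the replicate block gave Pkm 1.44. With a library left out, ranges that crossed 0 were −0.46 to 0.24 (Hk1), −0.75 to 0.13 and −0.59 to 0.28 (Tpi1), −0.51 to 0.049 (Gapdh), −0.13 to 0.19 (Pgk1), −1.40 to 1.42 and −1.32 to 1.19 (Eno2), −1.002 to 8.63 (Pkm), −5.41 to 9.98 (Pdk1), −2.52 to 1.18 (Pdk3), −0.51 to 0.19 (Bnip3l), −1.36 to 0.15 (Egln3), −7.25 to 4.38 (Ankrd37) and −0.85 to 0.34 (Mif). Ranges that kept their sign but were wide were 0.58 to 11.67 (Pfkl) and 0.27 to 11.18 (Slc2a1), highest without High replicate 1, −7.58 to −2.18 (Kdm3a) and −2.10 to −0.77 (Gpi), lowest without Medium replicate 2, 5.37 to 10.44 (Pfkm), −2.30 to −0.26 (Hif1a), −1.88 to −0.72 (Vegfa), −1.71 to −0.70 (Adm), −1.48 to −0.77 (Bnip3), 0.35 to 1.42 (Pfkp) and 0.065 to 0.45 (Eno1). The cause of these shifts was not tested.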
